A study of Mus musculus with 6 samples.

Results

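Cells that meet fatty acids sense them, take them up, burn them or store them as triglyceride in lipid droplets, and 10 mouse genes of this system are described here across 6 RNA sequencing libraries of co-cultured T cells. The genes are Ffar4, Pparg, Cd36, Fabp4, Fabp5, Lpl, Angptl4, Plin2, Hilpda and Pnpla2, which are 10 of the 54532 genes in the deposited expression table. Ffar4 and Pparg were chosen by their lower values with cisplatin in these same libraries, so their difference between the groups is given as a description with no test. The other 8 are their known partners, named for their function, although earlier results of these data were known when the members were chosen.

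Free fatty acids reach a cell from the blood or from neighbouring cells, and lipoprotein lipase frees them from circulating lipoproteins at the cell surface. Inside the cell they are carried by small binding proteins, activate the PPAR nuclear receptors and are esterified into droplets, whose coat and lipases decide how fast the store is opened. Activated T cells and macrophages both use this machinery, and several of its genes are also induced by low oxygen in tumour cells.

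The cisplatin group held 3 libraries of T cells grown together with ID8, an ovarian cancer line of the mouse, whose cells were pretreated with 40 µM cisplatin. The control group held 3 libraries of T cells co-cultured with ID8 cells given PBS, and the control libraries carry WT in their names. In both groups the T cells were primary cells isolated from the spleens of C57BL/6 mice with a pan T-cell kit, kept in IL-2 and pre-activated with anti-CD3/CD28 beads before co-culture. The study's methods say that T cells were collected after co-culture but not how they were separated from the ID8 cells, and no source used here says that the 3 libraries of a group came from separate mice, so p-values measure the spread between these libraries.

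Values are FPKM, fragments scaled by gene length and by the reads of the library, as the authors deposited them. Between 30606569 and 32169496 reads fell on genes in a library, and replicates of a group differed by more than counting noise. The groups were compared with limma on log2(FPKM + 0.1) over the 15874 genes whose mean reached 0.5 FPKM, and adjusted p-values are Benjamini-Hochberg values over all of these. A gene passed the test at an adjusted p-value under 0.05, and was called when it also differed at least 2-fold. The libraries held transcripts of other cells. All 26 T-cell markers were higher with cisplatin (median log2 fold change 0.61), and their summed level was 2122 to 2249 FPKM in control and 3353 to 3425 FPKM in cisplatin libraries. Of the 26 tested ID8 tumour and mesothelial markers, 23 were called lower (median log2 fold change -2.28), and the list summed to 1892 to 1980 FPKM in control and 309 to 320 FPKM in cisplatin libraries, with Col3a1 at 0 in all 6. Of the 14 tested macrophage markers, 10 were called higher (median log2 fold change 1.30), and the list summed to 71.2 to 75.4 FPKM in control and 154 to 173 FPKM in cisplatin libraries. Among these, Adgre1, Fcgr1, C1qa and Trem2 had control means under 0.5 FPKM and passed the filter only through the cisplatin libraries. That raises the count and the median. Of all tested genes 12.8% were called lower and 4.11% higher. Of 10 B-cell markers 8 rose and 1 fell, and the list, most of it Ighm, summed to 1667 to 1750 FPKM in control and 3592 to 3670 FPKM in cisplatin libraries. Bulk libraries do not separate a loss of cells of a type from a loss of RNA per cell, and these cannot be told apart here.

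Promoter sequences are shown first for 4 members, because the data hold members that were lower together and members that were higher, and the bases before their start sites can be read side by side. RefSeq windows of GRCm38.p6 were found for 6 of the 10 members, 9 windows in all. Each run below is the 250 bases before a start site, for Hilpda the one of its windows that holds motifs, 5′ to 3′ on the gene's strand. Capitals mark the hypoxia core (ACGTG or GCGTG) and the nuclear receptor half-site (AGGTCA), each searched on both strands. The Hilpda window shown lies at chr6:29272376-29272625 on the plus strand, that of Plin2 at chr4:86670060-86670309 on the minus strand, that of Ffar4 at chr19:38096829-38097078 on the plus strand and that of Cd36 at chr5:17835897-17836146 on the minus strand.
Hilpda: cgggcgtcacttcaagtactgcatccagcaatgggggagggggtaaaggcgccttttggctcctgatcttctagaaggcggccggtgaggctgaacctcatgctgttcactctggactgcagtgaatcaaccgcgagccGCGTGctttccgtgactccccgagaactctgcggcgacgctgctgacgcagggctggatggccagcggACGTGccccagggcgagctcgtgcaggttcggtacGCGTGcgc
Plin2: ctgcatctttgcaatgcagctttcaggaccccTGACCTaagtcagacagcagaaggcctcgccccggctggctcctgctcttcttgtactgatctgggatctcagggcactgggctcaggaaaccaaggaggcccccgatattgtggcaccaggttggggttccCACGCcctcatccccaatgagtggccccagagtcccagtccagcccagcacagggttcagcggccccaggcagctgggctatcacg
Ffar4: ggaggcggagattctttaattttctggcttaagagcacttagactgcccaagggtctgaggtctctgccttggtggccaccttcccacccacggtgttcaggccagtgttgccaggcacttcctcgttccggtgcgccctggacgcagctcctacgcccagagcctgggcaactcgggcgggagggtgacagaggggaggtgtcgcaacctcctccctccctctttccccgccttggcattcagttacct
Cd36: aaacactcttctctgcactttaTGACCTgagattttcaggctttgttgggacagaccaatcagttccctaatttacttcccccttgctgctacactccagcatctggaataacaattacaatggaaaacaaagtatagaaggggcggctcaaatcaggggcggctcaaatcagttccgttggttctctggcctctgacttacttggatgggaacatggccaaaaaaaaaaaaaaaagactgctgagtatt

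RefSeq has 2 start sites for Hilpda. The window printed held 3 hypoxia cores, which begin 111, 43 and 8 bases before its start site, and the other, at chr6:29272238-29272487 and ending where the gene of the table begins, held 0 cores and 0 half-sites. The Plin2 window held 1 core on the other strand, 86 bases before the start, and 1 half-site on the other strand. Cd36 had a half-site on the other strand and no core, and the Ffar4 window held neither motif. A hypoxia core was present in 38.6% of all 32851 promoter windows of this length, 3 or more of them in 6.58%, and a half-site in 14.0%. Of the 9 member windows 3 held a core and 4 a half-site. Among them are windows of Pparg, which are not printed. The one at chr6:115360894-115361143 held 2 cores and 1 half-site, and the one at chr6:115362099-115362348 held 1 half-site and 0 cores. The paired half-sites with a single base between them that PPAR-RXR dimers bind, searched with 1 mismatch allowed, were in 0.484% of all windows and in none of the 9. These are matches of letters in a short window and not binding sites.

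Of the 10 genes, 9 passed the filter on low values. Fabp4 did not. The 8 partners each had 3 cisplatin values on one side of the 3 control values, Fabp4 on few reads, where 64.2% of all tested genes did not overlap between the groups. Among the 7 tested partners, 3 were called lower (Hilpda, Angptl4 and Lpl) and 2 higher (Cd36 and Fabp5), against a background of 12.8% of tested genes called lower and 4.11% called higher, 16.9% in all. Plin2 and Pnpla2 passed the test with changes below 2-fold, which makes 4 partners that fell and 3 that rose, where 29% of tested genes fell and 27.5% rose. With Ffar4 and Pparg included, 5 of the 10 genes met the limits for lower and 2 for higher. The genes of this system therefore did not move one way, and the plot of every library shows both directions.

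**Figure D1:**
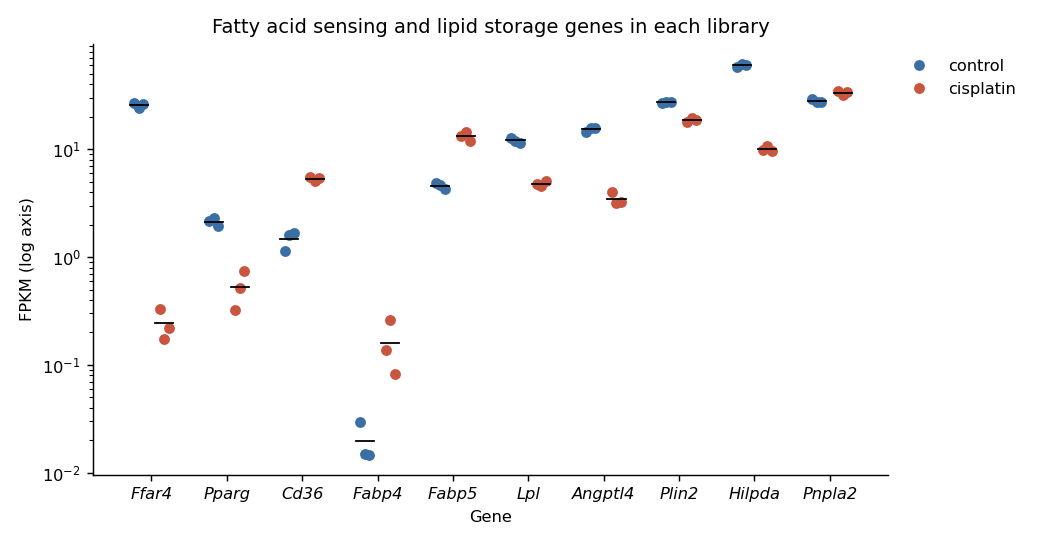
FPKM of the 10 genes (horizontal axis) in each library on a log vertical axis. Points are single libraries, 3 control (blue) and 3 cisplatin (red) per gene, and black lines are group means. Ffar4 shows the widest gap, from a mean of 25.7 FPKM in control to 0.243 FPKM in cisplatin libraries, while Cd36, Fabp4, Fabp5 and Pnpla2 sit higher in the cisplatin libraries.

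The sensors come first. Ffar4 encodes a G protein-coupled receptor on the cell surface that is activated by long-chain fatty acids. It lies on chromosome 19 from 38097079 to 38114263 on the plus strand of GRCm38 (ENSMUSG00000054200), and its RefSeq promoter is printed above. The control libraries had 26.7, 24.4 and 26.1 FPKM and the cisplatin libraries 0.333, 0.173 and 0.221 FPKM. In whole reads rebuilt from the FPKM these were 1116, 1020 and 1116 reads against 15, 8 and 10. The cisplatin libraries were all far below the control libraries, with the mean 106-fold higher in control. Its log2 fold change was -6.26, and -4.43 with a pseudocount of 1, so the size depends on the pseudocount. In the control libraries Ffar4 stood at percentile 86.2 of the tested genes by mean FPKM. Its cisplatin mean of 0.243 FPKM is under the 0.5 FPKM filter, which Ffar4 passed only through its control values. A low place among the tested genes in the cisplatin libraries was therefore set by the filter and is not given.

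Pparg encodes PPARγ, the nuclear receptor that binds fatty acids and their oxidised forms and drives fat storage genes in adipocytes and macrophages. It lies on chromosome 6 from 115360951 to 115490399. The control libraries had 2.18, 2.29 and 1.94 FPKM and the cisplatin libraries 0.324, 0.521 and 0.742 FPKM. The groups did not overlap, but the highest cisplatin value was more than 2 times the lowest and rest on 31 to 71 reads each. The log2 fold change was -1.88. An antisense transcript, Gm44079, overlaps Pparg without sharing an exon base, so reads of either gene are not mixed through its exons.

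Of the other sensors and nuclear receptors, 13 of 18 genes were tested, and 5 fell, 3 rose and 5 did not pass. Over all tested genes 29% fell and 27.5% rose, which is the background for such counts here and in the lists below. Their median log2 fold change was 0.02, beside 0.03 over all tested genes. Ffar1, the other long-chain fatty acid receptor of the family, had 1.66 ± 0.306 FPKM in control and 4.86 ± 0.304 FPKM with cisplatin (SD, n = 3 each) and rose by 1.51 on the log2 scale (limma, adjusted p = 1.2e-04). It was thus higher in the libraries where Ffar4 was close to 0. Ppard, the PPAR isoform found in most tissues, fell from 9.29 to 4.72 FPKM (log2 fold change -0.96), and Rxra, the partner that PPARs need on DNA, had a log2 fold change of -0.94. Both changes were below the 2-fold limit. Cebpa and Cebpb, factors that act with PPARγ in adipocyte differentiation, were called lower, with log2 fold changes of -2.89 and -1.46. Ppara was below the filter, at 0.126 FPKM in control and 0.0241 FPKM in cisplatin libraries.

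Uptake and binding moved the opposite way for the members measured here. Cd36 encodes the scavenger receptor that carries long-chain fatty acids and oxidised lipoproteins into macrophages, adipocytes and muscle, and it is also found on some T cells. It lies on chromosome 5 from 17781690 to 17888801 on the minus strand. The RefSeq window printed above lies inside these coordinates, so it belongs to an internal start site and not to the outermost one. The cisplatin libraries had 5.55, 5.04 and 5.39 FPKM and the control libraries 1.14, 1.61 and 1.69 FPKM. Every cisplatin library was at least 3 times the mean of control, with rebuilt reads of 600 to 645 against 123 to 186. Cd36 rose by 1.80 on the log2 scale (limma, SE 0.15, adjusted p = 7.8e-05).

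Fabp5 and Fabp4 encode cytosolic carriers that bring fatty acids to membranes, enzymes and nuclear receptors. Fabp5, on chromosome 3 from 10012548 to 10016607, had 13.3, 14.6 and 12.01 FPKM in the cisplatin libraries and 4.85, 4.68 and 4.32 FPKM in control. The groups lay far apart, and Fabp5 rose by 1.503 on the log2 scale (limma, SE 0.08, adjusted p = 1.1e-05), and 289 of the tested genes had a larger rise. The table lists 2 processed pseudogenes described as Fabp5 copies, neither above 0.124 FPKM in a group mean, and the treatment of reads that match several places is not stated, so the Fabp5 level is uncertain to that extent. Fabp4, on the same chromosome from 10204088 to 10208576, is the carrier typical of adipocytes, macrophages and capillary endothelium. It was barely present, with 20, 39 and 12 reads (rebuilt from the FPKM) in cisplatin and 4, 2 and 2 in control libraries, which did not overlap. The ratio of its summed reads, adjusted for depth, was 8.71 (71 against 8 reads, exact 95% interval 4.19 to 21.0 for counting error only), and it entered no test. The other carriers (Fabp1, Fabp2, Fabp3, Fabp6 and Fabp7) were all below the filter, so Fabp5 was the carrier gene with the highest level in both groups.

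The rest of the uptake, binding and activation list did not follow Cd36. Of 21 genes, 14 were tested, and 11 fell and 3 rose, with a median log2 fold change of -0.68. The 5 called lower were Vldlr (log2 fold change -3.46), a receptor for triglyceride-rich lipoproteins, Lrp1 (-2.78 on the same scale), a remnant receptor, the fatty acid transporters Slc27a6 (-2.57) and Slc27a1 (-1.10), and Acsl4 (-1.53), which couples arachidonic acid to coenzyme A. Msr1, a macrophage scavenger receptor, was the single gene called higher, at 1.16 on the log2 scale (limma, adjusted p = 0.0024).

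Lpl and Angptl4 form an enzyme and inhibitor pair outside the cell. Lpl encodes lipoprotein lipase, which splits lipoprotein triglyceride, and lies on chromosome 8 from 68880491 to 68907448. The control libraries had 12.7, 11.97 and 11.5 FPKM and the cisplatin libraries 4.77, 4.61 and 5.04 FPKM. Lpl fell by 1.31 on the log2 scale (limma, SE 0.06, adjusted p = 4.4e-06), with all 3 cisplatin values below every control value. Angptl4 encodes a secreted protein that inactivates this lipase and is induced by PPARs and by hypoxia, and lies on chromosome 17 from 33773750 to 33781575. It had 14.6, 15.8 and 15.7 FPKM in the control libraries and 4.02, 3.19 and 3.28 FPKM in the cisplatin libraries. It fell by 2.11 on the log2 scale (limma, SE 0.10, adjusted p = 4.4e-06), also without overlap. The inhibitor was thus lower by more than the enzyme. The ratio of their FPKM within a library, which a single scaling factor per library cannot change, was 1.27 ± 0.112 (SD, n = 3) in control and 0.728 ± 0.102 (SD, n = 3) with cisplatin. The groups did not overlap in this ratio, which was chosen with the values known and was not tested.

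Plin2, Hilpda and Pnpla2 act at the droplet itself. Plin2 encodes perilipin 2, the coat protein of droplets in most cells, which is stabilised by the lipid it covers. It lies on chromosome 4 from 86648386 to 86670060. The control libraries had 26.8, 27.4 and 27.4 FPKM and the cisplatin libraries 17.9, 19.4 and 18.9 FPKM, a narrow spread in both groups. Plin2 fell by 0.54 on the log2 scale (limma, SE 0.04, adjusted p = 3.9e-05). Plin3, a perilipin that also sits on small droplets, had 27.5 FPKM in control and 18.2 FPKM in cisplatin libraries. The ratio of Plin2 to Plin3 within a library was 0.989 ± 0.0200 in control and 1.03 ± 0.0296 with cisplatin (SD, n = 3 each), and the groups overlapped. Plin1, Plin4 and Plin5 were below the filter.

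Pnpla2 encodes adipose triglyceride lipase, which takes the first fatty acid off stored triglyceride, and Hilpda encodes a small droplet protein that inhibits this lipase and is induced by hypoxia. Hilpda, on chromosome 6 from 29272488 to 29275446, had 57.8, 62.4 and 60.8 FPKM in the control libraries and 9.83, 10.7 and 9.62 FPKM in the cisplatin libraries. It fell by 2.58 on the log2 scale (limma, SE 0.05, adjusted p = 1.5e-07), and the groups were widely separated. Pnpla2, on chromosome 7 from 141455198 to 141460743, had 29.2, 27.6 and 27.5 FPKM in control and 34.8, 32.2 and 34.0 FPKM with cisplatin. Its log2 fold change was 0.26 (limma, 95% interval 0.16 to 0.36, adjusted p = 0.0022) on the FPKM as deposited and -0.33 when the T-cell markers were used to centre the libraries, so its direction depends on the scaling. The ratio of Hilpda to Pnpla2 within a library does not depend on that scaling and was 2.15 ± 0.150 in control and 0.299 ± 0.0282 with cisplatin (SD, n = 3 each), without overlap, and was not tested.

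Other lipases and their regulators showed smaller differences. Of 16 genes, 12 were tested, and 5 fell, 2 rose and 5 did not pass, with a median log2 fold change of -0.17. Lipg, endothelial lipase, was called higher at low level (0.449 to 1.18 FPKM) and Daglb, a diacylglycerol lipase, lower (2.46 to 1.11 FPKM). Abhd5, the coactivator of the lipase made from Pnpla2, fell by 0.48 on the log2 scale (limma, adjusted p = 0.017). G0s2, another inhibitor of that lipase, was at 0.812 FPKM in control and 1.10 FPKM in cisplatin libraries and did not pass. Among 28 genes of the droplet coat and of triglyceride synthesis, 17 were tested, and 7 fell, 4 rose and 6 did not pass, with a median of -0.33. The 3 called lower were Soat1 (log2 fold change -1.89), which makes cholesteryl esters, and Gpat3 (-1.56) and Gpam (-1.13), which start triglyceride synthesis. Dgat1, which makes the last bond of triglyceride, had 14.5 FPKM in control and 16.4 FPKM in cisplatin libraries.

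Over these 4 lists, 56 of 83 other lipid genes were tested and 11 were called lower and 3 higher, beside the 12.8% and 4.11% of all tested genes. A further list of 12 PPAR targets outside storage had 10 tested genes, of which 7 fell, 2 rose and 1 did not pass. Pdk4, a kinase that turns cells from glucose to fat as fuel, was called lower, with a log2 fold change of -1.42.

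**Figure D2:**
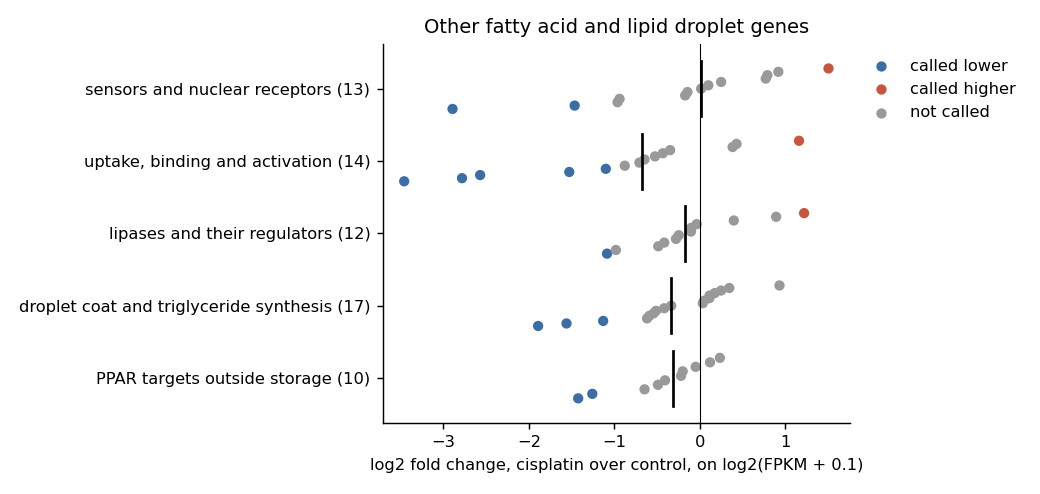
Log2 fold change of cisplatin over control (horizontal axis) for the tested genes of the 5 further lists (rows, number tested in brackets). Each point is 1 gene, blue if called lower, red if called higher and grey if not called, and black lines are list medians, which run from -0.68 for uptake, binding and activation to 0.02 for sensors and nuclear receptors.

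The order of the 10 genes changed between the groups. In control it ran from Hilpda (60.4 FPKM) through Pnpla2 (28.1), Plin2 (27.2), Ffar4 (25.7), Angptl4 (15.3), Lpl (12.1), Fabp5 (4.61), Pparg (2.14) and Cd36 (1.48) to Fabp4 (0.0197 FPKM), and no neighbours in that order overlapped in their library values, although the highest Plin2 value lay just under the lowest of Pnpla2 and the highest Ffar4 value just under the lowest of Plin2. In the cisplatin libraries Pnpla2 was highest (33.6 FPKM), followed by Plin2 (18.7), Fabp5 (13.3), Hilpda (10.04), Cd36 (5.33), Lpl (4.81), Angptl4 (3.50), Pparg (0.529), Ffar4 (0.243) and Fabp4 (0.161 FPKM). There Cd36 and Lpl overlapped, as did Pparg with Ffar4 and Ffar4 with Fabp4. FPKM is scaled by gene length, but the table has a single length per gene and does not say which transcript was made. For Fabp4 that length, 4489 bases, covers the whole span of the gene, and for Fabp5 it is 3567 bases. A length above that of the transcript made lowers the FPKM. The order of the genes, their shares of the sum and the level of a ratio between genes therefore hold for these lengths only. Differences of 1 gene between the groups do not depend on the length used.

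The summed level of the 10 genes was 177 ± 1.13 FPKM (SD, n = 3) in control and 90.3 ± 0.893 FPKM (SD, n = 3) with cisplatin. Hilpda alone made up 34.1% of the sum in control and 11.1% with cisplatin. Ffar4 made up 14.5% and 0.268%. The share of Pnpla2 went from 15.9% to 37.3%, and that of Fabp5 from 2.61% to 14.7%.

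**Figure D3:**
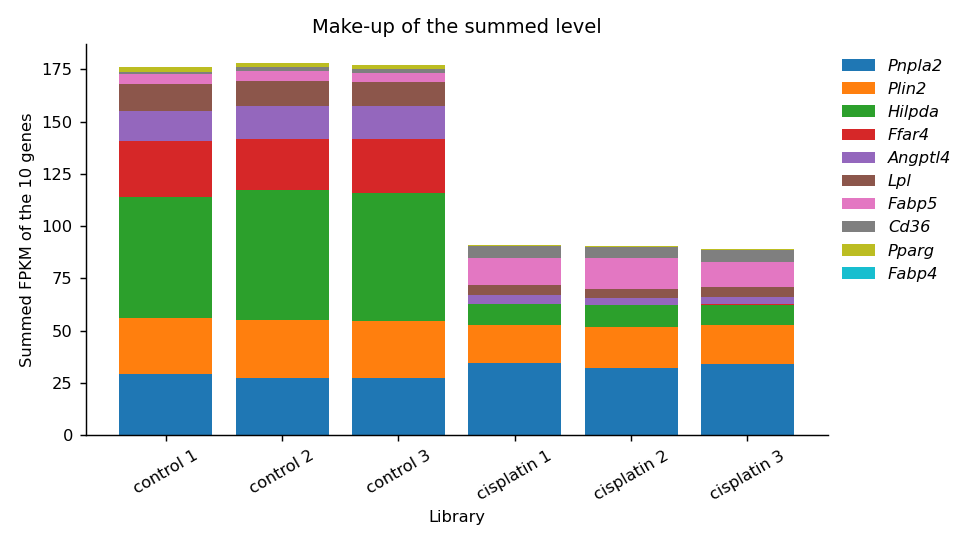
Summed FPKM of the 10 genes (vertical axis, from 0) in each of the 6 libraries, stacked by gene in the order of the legend from the bottom. The control bars reach 176 to 178 FPKM and the cisplatin bars 89.2 to 90.9 FPKM, and the Hilpda and Ffar4 segments account for most of the visible loss in height.

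The members lie at different places beside the markers of other cells. Hilpda (log2 fold change -2.58) and Angptl4 (-2.11) lay within the range of the tested ID8 tumour and mesothelial markers (-4.20 to 0.04), of which 7 and 15 had a lower value than these genes. For Lpl 22 of the 26 were lower and for Plin2 24. The hypoxia list moved with them. Of its 16 tested genes 12 were called lower, with a median log2 fold change of -1.86, and its summed level was 928 to 963 FPKM in control and 233 to 249 FPKM in cisplatin libraries. Hilpda and Angptl4 lay below that median, by 0.72 and 0.25 on the log2 scale. Vegfa, a hypoxia target of the list, lay further below it, with a log2 fold change of -3.31. Within a library the ratio of Hilpda to Vegfa was 0.601 ± 0.0319 in control and 0.996 ± 0.0283 with cisplatin (SD, n = 3 each). Hilpda was thus lower by less than Vegfa, though by more than the list median. Angptl4 to Vegfa went from 0.153 ± 0.00976 to 0.348 ± 0.0600 (SD, n = 3 each). The part of the tumour-cell share and of hypoxia in these falls was not tested.

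Cd36 and Fabp5, with log2 fold changes of 1.80 and 1.503, were above all 26 T-cell markers (0.19 to 0.89) and within the range of the 14 tested macrophage markers (-0.47 to 2.75), of which 4 and 6 were higher. Among those higher, C1qa and Fcgr1 passed the filter on low values only through the cisplatin libraries. The macrophage list was led by C1qb (log2 fold change 2.75), a complement chain, and Gpnmb (2.59), a glycoprotein of lipid-laden macrophages. Cd68, a general macrophage marker, was at 24.1 FPKM in control and 24.2 FPKM in cisplatin libraries. The ratio of Cd36 to Adgre1, which encodes F4/80, was 5.44 ± 1.40 in control and 7.38 ± 0.145 with cisplatin (SD, n = 3 each). The groups did not overlap in this ratio, but Adgre1 rests on only 20, 23 and 42 rebuilt reads in the control libraries. The part of macrophage transcripts in the rise of Cd36 and Fabp5 was not tested.

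Pnpla2 lay between the lists, above 1 of the 26 T-cell markers. Its ratio to the T-cell receptor chain gene Cd3e within a library was 0.882 ± 0.0496 in control and 0.848 ± 0.0317 with cisplatin (SD, n = 3 each), and the groups overlapped. Ffar4 had the lowest log2 fold change of all 15874 tested genes and so was below every tested marker of these lists. It was chosen for its fall, so this place is a description only. Adipocytes are rich in transcripts of Fabp4, Cd36, Lpl and Pparg, and capillary endothelium in those of Fabp4 and Cd36. All 10 adipocyte markers, Adipoq and Plin1 among them, stayed under 0.5 FPKM in every library and summed to 0.558 to 0.756 FPKM in control and 0.320 to 0.791 FPKM in cisplatin libraries. Of 12 endothelial markers 7 were under 0.5 FPKM in every library, with Gpihbp1, the anchor of lipoprotein lipase on capillaries, at 0 in all 6. Of the 5 tested, Esam (log2 fold change -2.61), Robo4 and Tek were called lower, Vwf had a log2 fold change of -0.48 and Pecam1, which leukocytes also carry, rose by 0.62 on the log2 scale. The whole list summed to 28.9 to 29.5 FPKM in control and 24.9 to 25.3 FPKM in cisplatin libraries. Pecam1 went from a mean of 13.4 FPKM in control to 20.6 FPKM with cisplatin, and Esam from 9.71 to 1.51 FPKM. The sum thus understates the fall of the tested genes other than Pecam1. The part of endothelial transcripts in the falls of members was not tested.

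**Figure D4:**
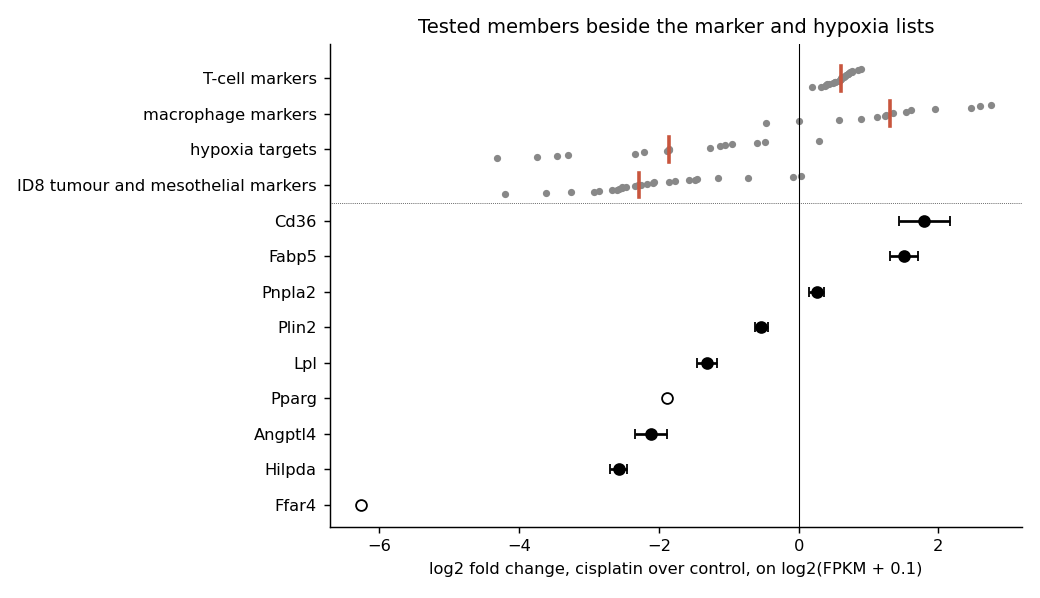
Log2 fold change of cisplatin over control (horizontal axis) for the 9 tested members, with 95% intervals from limma (filled points) or without for Ffar4 and Pparg, which were chosen for their fall (open points). Above the dotted line each grey point is a tested gene of a marker or hypoxia list and the red line is the list median, from -2.28 for the ID8 tumour markers to 1.30 for the macrophage markers. Ffar4 at -6.26 lies left of all of them, which is a description only given how it was chosen.

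The genes most like Ffar4 in pattern, by Euclidean distance between log2(FPKM + 0.1) values centred on each gene's mean over the 6 libraries, were Kctd14 (distance 0.46), 4930447F24Rik (0.70) and Cygb (0.89), among the 13639 genes whose mean reached 1 FPKM. Cygb, cytoglobin, had 18.4 FPKM in control and 0.259 FPKM in cisplatin libraries, and shares 8.62% of its exon bases with Prcd on the other strand, so part of its reads may belong there. The genes nearest to Pparg were Fkbp7 (distance 0.40), the processed pseudogene Gm5345 (0.41) and Spaca6 (0.43). With 2 groups of 3 libraries this likeness mostly repeats the size of the difference between the groups.

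The scaling between libraries set how many genes counted as lower. The median log2 fold change of all tested genes was 0.03 as deposited, 0.16 after quantile normalization, 0.11 after rescaling to the reads on genes and -0.56 after centring on the T-cell markers, which assumes that these did not change. As deposited, 75.7% of called genes were lower, after centring 96.5% and after quantile normalization 64.6%. After the centring the members called lower were 6, Ffar4 and Pparg included, with Plin2 at a log2 fold change of -1.13. Cd36 alone was called higher, at 1.21, as Fabp5 was at 0.91. The direction of each tested member other than Pnpla2 was the same under every alternative that tested it, 18 of them for Pparg and Cd36, which the 5 FPKM minimum leaves out, and 19 for the others.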

How the data were processed

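RNA sequencing of 6 T-cell libraries was analysed, 3 cisplatin and 3 control, grouped by the treatment in the labels. According to the study's methods, the authors cleaned the reads and aligned and counted them with LifeScope, while the submitters' processing notes name fastp, HISAT2 2.0.5, featureCounts 1.5.0-p3 and mm10. The authors deposited FPKM values. Strand use and reads matching several genes are not described in the sources used here. The table held 0 further sample columns. Coordinates are those of the table, and start and end equalled GENCODE M21 (GRCm38) for 53499 of 54409 shared genes. FPKM times gene length gave whole reads within 0.1 for all values above 0, and these give the depth.

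Tests used limma 3.58.1 (R 4.3.3, lmFit, eBayes with trend) on log2(FPKM + 0.1), which understates changes of low genes, and were checked on simulated data. Called genes passed at an adjusted p-value under 0.05 with a difference of 1 or more on the log2 scale. Of each further list, up to 4 called genes were named by size of change where the higher group reached 1 FPKM with groups that did not overlap. Further genes (among them Slc27a1, Msr1, Ppara, Ppard, Rxra, Abhd5, G0s2, Dgat1, Plin3, Cd68, Vwf and Pecam1) and the ratios were chosen after their values were seen. The members and lists were chosen with earlier results of these data known. Alternatives covered pseudocounts, filters, scalings, voom on rebuilt reads, the variance trend, the fold limit, each library left out and a replicate block. Tables were read with python 3.11.15, pandas 2.3.3 and numpy 2.4.6.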

Additional observations from a re-analysis of the deposited data

How the results depend on the processing

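Of 169 values of the 9 tested members under 19 alternatives, 164 kept their direction and their side of the limits. These include 19 values of Ffar4 and 18 of Pparg, all kept, which say little because both genes were chosen for their fall. The exception in direction was Pnpla2, at a log2 fold change of -0.33 after centring on the T-cell markers, a step that by construction lowers every gene alike. The count of all called genes was 2687 as reported, 1762 with a pseudocount of 1, 1145 with a minimum mean of 5 FPKM (8422 genes tested) and 8963 without a fold limit. Of the members, 1 was called higher with the 5 FPKM minimum, which leaves out Cd36, and 1 after the centring, against 2 as reported. For the other lipid genes, 11 called lower became 7 with a pseudocount of 1, 26 after the centring and 28 without a fold limit. The 3 called higher became 1 with a pseudocount of 1, 6 after quantile normalization, 5 after rescaling to reads on genes, 6 with voom and 12 without a fold limit. They became 0 in limma with the 5 FPKM minimum and 0 after the centring, where 5 had a higher value at an unadjusted p under 0.05 in each case. The cause of the other moves was not tested.

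The numbers 1 to 3 of the library names did not pair the libraries, since deviations of same-numbered libraries from their group means correlated at 0.02, -0.06 and -0.02. With the replicate number as a block 2662 genes were called, and the calls of members, Ffar4 and Pparg included, were 5 lower and 2 higher. Leaving out each library in turn gave 2600 to 2692 called genes. Depth limits Fabp4, Ffar4 with cisplatin, Pparg with cisplatin and Adgre1 in control, which rest on few reads.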
